A study of Mus musculus with 42 samples.

Results

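The step from ZT8 to ZT12 covers the 4 h that lead up to lights off, the end of the rest phase of a nocturnal mouse. Lung RNA of mice kept in their home cages was compared between these 2 times: 3 libraries at ZT8 and 3 at ZT12, out of 42 libraries in the series. All genes with a mean of at least 0.5 FPKM over these 6 libraries entered the comparison, 17131 of the 54532 genes in the deposited table. Of them 629 passed this filter through 1 of the 2 times alone, among them the listed genes Ucp1, Ccl19, Hif3a, Nr4a3, Ighe, Prox1 and Slc7a11. The authors' unit, FPKM, counts fragments per kilobase of a gene, with a scaling of each library.

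All mice were wild-type C57BL/6J with free access to food and water, under lights from clock hour 8 (ZT0) to clock hour 20 (ZT12). The home cage group (Ctrl) and a group in SD cages, in a series whose title speaks of sleep deficiency, spent 20 h a day for 2 days, from clock hour 14 to clock hour 10, in those cages. Lungs were taken every 4 h over 24 h, so ZT8 is clock hour 16 and ZT12 clock hour 20. Each group has 3 libraries, titled biological replicates, with no word on whether a library is 1 animal or a pool. The sources used here do not give sex or age.

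The 6 home cage libraries held 26591557 to 28495489 recovered reads. Lung genes were abundant in them: the surfactant gene Sftpc averaged 15578 FPKM at ZT8 and 16456 at ZT12, the club cell secretoglobin Scgb1a1 56453 and 36433, the type 1 cell receptor Ager 767 and 862, and the endothelial adhesion molecule Pecam1 84.1 and 94.2. In a principal component plot of the 12 libraries at ZT8 and ZT12, the first component (58.7% of the variance) separated the housings and the second (14.5%) the times. Libraries of one group lay very close together, with a median coefficient of variation of 3.71% at both ZT8 and ZT12 for protein-coding genes with at least 5 FPKM.

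Immunoglobulin V segments bear on what a replicate is here, because each animal assembles its own antibody repertoire from them. The kappa segment Igkv4-72 stood at 0.516, 0.335 and 0.683 FPKM in the 3 ZT8 libraries and at 122, 128 and 134 in the 3 ZT12 libraries. Igkv8-21 stood at 134, 138 and 139 and then at 1.7, 2.04 and 2.44. In these segments the 3 libraries of a time lay close together beside the gap between the times. Over the V segments with at least 5 FPKM, the highest of the 3 libraries exceeded the lowest by a median factor of 1.18 at ZT8 (51 segments) and 1.22 at ZT12 (85 segments). Protein-coding genes at the same minimum varied less, with a median factor of 1.07 at either time. Of 144 V segments tested 96 changed at least 2-fold, and 45 of the 50 largest changes in the lung were immunoglobulin or T cell receptor segments. These 2 segments were picked after their values were seen. All p-values below measure only how far libraries of the same group lie apart, which may be technical, and what 1 group's animals had in common cannot be told apart from the hour.

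The mammalian clock is a feedback loop. The activators CLOCK and BMAL1 (Arntl) bind E-boxes, with the letters CACGTG, and switch on the Per and Cry genes, whose products then block the activators. REV-ERB receptors (Nr1d1, Nr1d2) repress Arntl, ROR receptors oppose them, and output factors such as DBP carry the rhythm to other genes. Late in the light phase of mice the adrenal gland also releases corticosterone, so that glucocorticoid-induced genes join in daily rhythms of many organs, the lung among them.

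5 of the 16 clock genes with a RefSeq promoter entry held CACGTG in the 180 bases before their start. They are shown because they share this site and still took different courses over the 4 h. The sequences run 5′ to 3′ on the gene's strand, from 180 bases before to 1 base before the start (RefSeq, GRCm38.p6), with the E-box in capitals. Per1 (chr11:69098769-69098948, plus strand) and Cry1 (chr10:85185055-85185234, minus strand) rose, Bhlhe41 (chr6:145865421-145865600, minus strand) and Tef (chr15:81802493-81802672, plus strand) fell, and Ciart (chr3:95882229-95882408, minus strand) did not pass the test.
Per1: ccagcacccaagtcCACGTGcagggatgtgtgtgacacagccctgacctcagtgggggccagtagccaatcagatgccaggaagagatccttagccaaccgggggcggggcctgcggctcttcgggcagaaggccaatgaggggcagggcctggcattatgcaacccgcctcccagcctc
Cry1: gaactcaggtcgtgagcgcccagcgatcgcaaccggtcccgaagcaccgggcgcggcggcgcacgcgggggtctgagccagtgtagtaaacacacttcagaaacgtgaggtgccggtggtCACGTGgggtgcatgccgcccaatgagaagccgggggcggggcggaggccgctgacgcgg
Bhlhe41: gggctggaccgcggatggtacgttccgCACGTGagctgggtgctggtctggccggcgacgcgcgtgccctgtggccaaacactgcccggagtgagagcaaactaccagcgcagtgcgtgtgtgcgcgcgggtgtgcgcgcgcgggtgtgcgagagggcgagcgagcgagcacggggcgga
Tef: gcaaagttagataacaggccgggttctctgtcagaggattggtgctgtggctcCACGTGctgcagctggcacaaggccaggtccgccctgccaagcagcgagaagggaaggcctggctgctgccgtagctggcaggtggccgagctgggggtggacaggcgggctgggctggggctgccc
Ciart: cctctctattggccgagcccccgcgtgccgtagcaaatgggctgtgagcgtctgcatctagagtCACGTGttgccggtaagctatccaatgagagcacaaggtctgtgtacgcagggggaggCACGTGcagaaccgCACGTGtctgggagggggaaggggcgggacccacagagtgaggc
The motif reads the same on both strands. It begins 166 bases before the start in Per1, 60 in Cry1, 153 in Bhlhe41, 127 in Tef, and 116, 58 and 44 in Ciart, which holds 3 copies. Tef has a further start whose window also holds a copy, at 138 bases. Over all 32851 promoter windows of this length 4.81% held CACGTG. Counted by gene, with any of its starts, the share was 7.32% among genes called higher at ZT12 (144 of 1967), 7.69% among those called lower (127 of 1652) and 7.75% among those not called (611 of 7879). A match is a description of these letters and not evidence of binding.

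Of 17131 genes, 2713 were higher at ZT12 (15.8%) and 2343 lower (13.7%) by limma at a Benjamini-Hochberg adjusted p under 0.05 over all genes tested, two-sided. Most changes were small: on the scale of log2(FPKM + 1), 292 called genes rose at least 1.5-fold (1.7%) and 265 fell as much (1.55%), and 112 and 90 passed 2-fold. The median change of all genes was 0.0012 log2 units. Home cage counts called in the gene lists below are to be read beside the shares over all genes, 15.8% higher and 13.7% lower. Seen against the other home cage times, 142 of the 292 strongest risers had their highest mean at ZT12 and 96 at ZT16, and 135 of the 265 strongest fallers had theirs at ZT8 and 71 at ZT4. These genes were selected by their values at ZT8 and ZT12, which favours highest means at those times. Over all 17131 genes, 1651 had their highest mean at ZT12 and 2312 at ZT8. Genes called higher were longer than those called lower, with median gene lengths of 4737 and 3001 bases against 3495 for all genes tested; the part of length in the calls was not tested. In RNA of bulk lung, fewer cells of a type and less RNA per cell cannot be told apart.

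**Figure D1:**
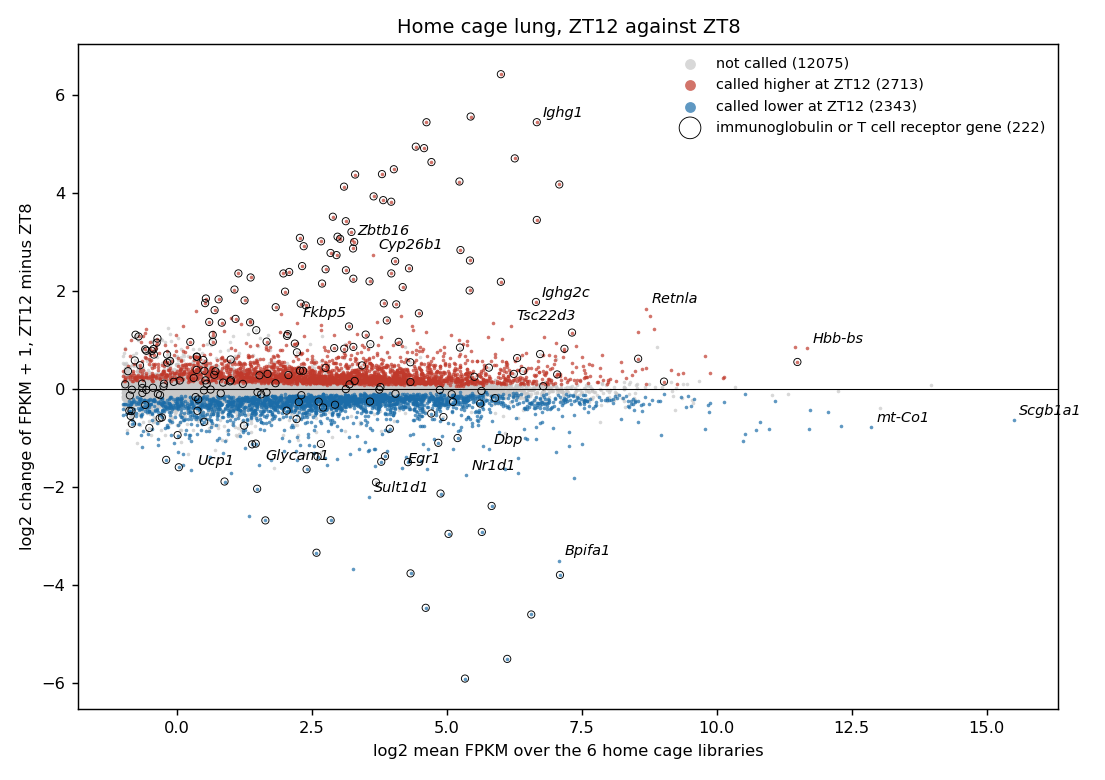
Change from ZT8 to ZT12 (log2 of FPKM + 1) of each of the 17131 genes against its mean log2 FPKM over the 6 home cage libraries. Red marks the 2713 genes called higher, blue the 2343 called lower and grey the rest; open rings mark immunoglobulin and T cell receptor genes, which fill most of the extremes.

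Among the clock repressors, Per1, Per2 and Cry1 rose and Per3, Cry2 and Ciart were not called. Per2 stood at 15.4, 16 and 15.9 FPKM at ZT8 and 28.8, 28.9 and 30.6 at ZT12, a 1.81-fold rise (log2 0.86 ± 0.058 SE, adjusted p = 1.91e-13) with no overlap. Per1, a period gene that glucocorticoids also induce, went from 23.8, 21.2 and 25.2 to 37.5, 37 and 39 FPKM (log2 0.67 ± 0.051, adjusted p = 2.68e-12). Cry1 went from 5.89, 5.64 and 5.86 to 9.46, 9.72 and 9.43 (log2 0.63 ± 0.055, adjusted p = 7.89e-11). Each of these 3 had all ZT12 libraries above all ZT8 libraries. Their later course differed: Per1 and Per2 had their highest home cage mean at ZT12, while Cry1 climbed on to 15 FPKM at ZT20. The home cage groups at ZT0 and ZT24, the same hour of the day, also differed. Per1 averaged 13.8 and 5.71 FPKM there, Per2 3.67 and 5.48, and Cry1 7.96 and 11.7. Per3 did not pass the test, at 16.4, 16.4 and 16.6 against 18, 17.7 and 17.4 FPKM (log2 0.10, adjusted p = 0.117), although no libraries overlapped and a fit on these 2 groups alone called it (adjusted p = 0.0444). Not called either were Cry2 (log2 -0.019, adjusted p = 0.763) and Ciart, at 14, 12.7 and 13.9 against 13.5, 12.9 and 14.1 (adjusted p = 0.973). Ciart overlaps the antisense gene C920021L13Rik, which averaged 4.02 and 4.88 FPKM, and the sources used here do not say how strand was treated in counting.

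Nr1d1, which encodes REV-ERB alpha, had the largest fall of the 18 clock genes tested. It stood at 66.3, 59.6 and 65.6 FPKM at ZT8 and 18.4, 18.3 and 17.8 at ZT12 (log2 -1.76 ± 0.054 SE, adjusted p = 2.36e-22), and it overlaps Thra on the opposite strand (20.4 and 15.9 FPKM). Its paralog Nr1d2 fell less, from 34.2, 37.4 and 33 to 26.2, 28.9 and 27.3 FPKM (log2 -0.33, adjusted p = 9.66e-05). In both receptors ZT8 held the highest mean of the 7 home cage times. Rora, a receptor that binds the same elements as the REV-ERBs and activates, was not called (3.11 and 3.36 FPKM, adjusted p = 0.271). The activators were not called. Arntl was at 0.63, 0.864 and 0.762 and 0.788, 0.617 and 0.742 FPKM (adjusted p = 0.758), against 5.46 at ZT0. Npas2 changed by log2 0.14 (adjusted p = 0.163) and Clock by 0.13 (adjusted p = 0.062), although Clock was called with limma voom on the recovered reads (log2 0.17, adjusted p = 0.0435) and without ZT12 replicate 3 (log2 0.16, adjusted p = 0.041).

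Of the 6 output factors 4 fell and 2 rose. Dbp, a PAR bZIP activator driven by E-boxes, fell from 78.7, 74.5 and 78.1 FPKM to 33, 31.9 and 32 (log2 -1.23 ± 0.069 SE, adjusted p = 1.81e-15), and it overlaps Sphk2 on the opposite strand (9.23 and 10.1 FPKM). Its relative Tef fell by far less, from 55.3, 55.5 and 57 to 52.2, 51.5 and 51.7 (log2 -0.11, adjusted p = 0.014), and lost the call without ZT8 replicate 3 (adjusted p = 0.0669). Hlf, the third PAR bZIP gene, rose from 4.31, 4.65 and 4.29 to 5.34, 5.4 and 5.09 FPKM (log2 0.21, adjusted p = 0.0176). That rise is at the edge of the call: the adjusted p was 0.0529 with a pseudocount of 0.1 and between 0.0525 and 0.0643 without ZT8 replicate 1, ZT8 replicate 3, ZT12 replicate 1 or ZT12 replicate 2. Nfil3, the repressor that competes with DBP for its sites, rose from 2.61, 2.25 and 2.59 to 5.36, 3.83 and 4.3 FPKM (log2 0.65, adjusted p = 2.71e-07). The DEC repressors fell, Bhlhe41 from 5.3, 5.17 and 5.59 to 2.54, 2.79 and 2.42 FPKM (log2 -0.83, adjusted p = 2.5e-12) and Bhlhe40 from 19.9 to 15.6 (log2 -0.33, adjusted p = 5.54e-09). Among 8 other genes of daily rhythm 6 rose and 1 fell. Timp3, an inhibitor of matrix metalloproteases, went from 16.1, 16.2 and 16.1 to 28.1, 29 and 28 FPKM (log2 0.78, adjusted p = 3.14e-13), and Wee1, a kinase that restrains entry into mitosis, went from 6.76, 6.04 and 6.37 to 11.5, 11.1 and 10.4 FPKM (log2 0.70, adjusted p = 2.09e-09).

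**Figure D2:**
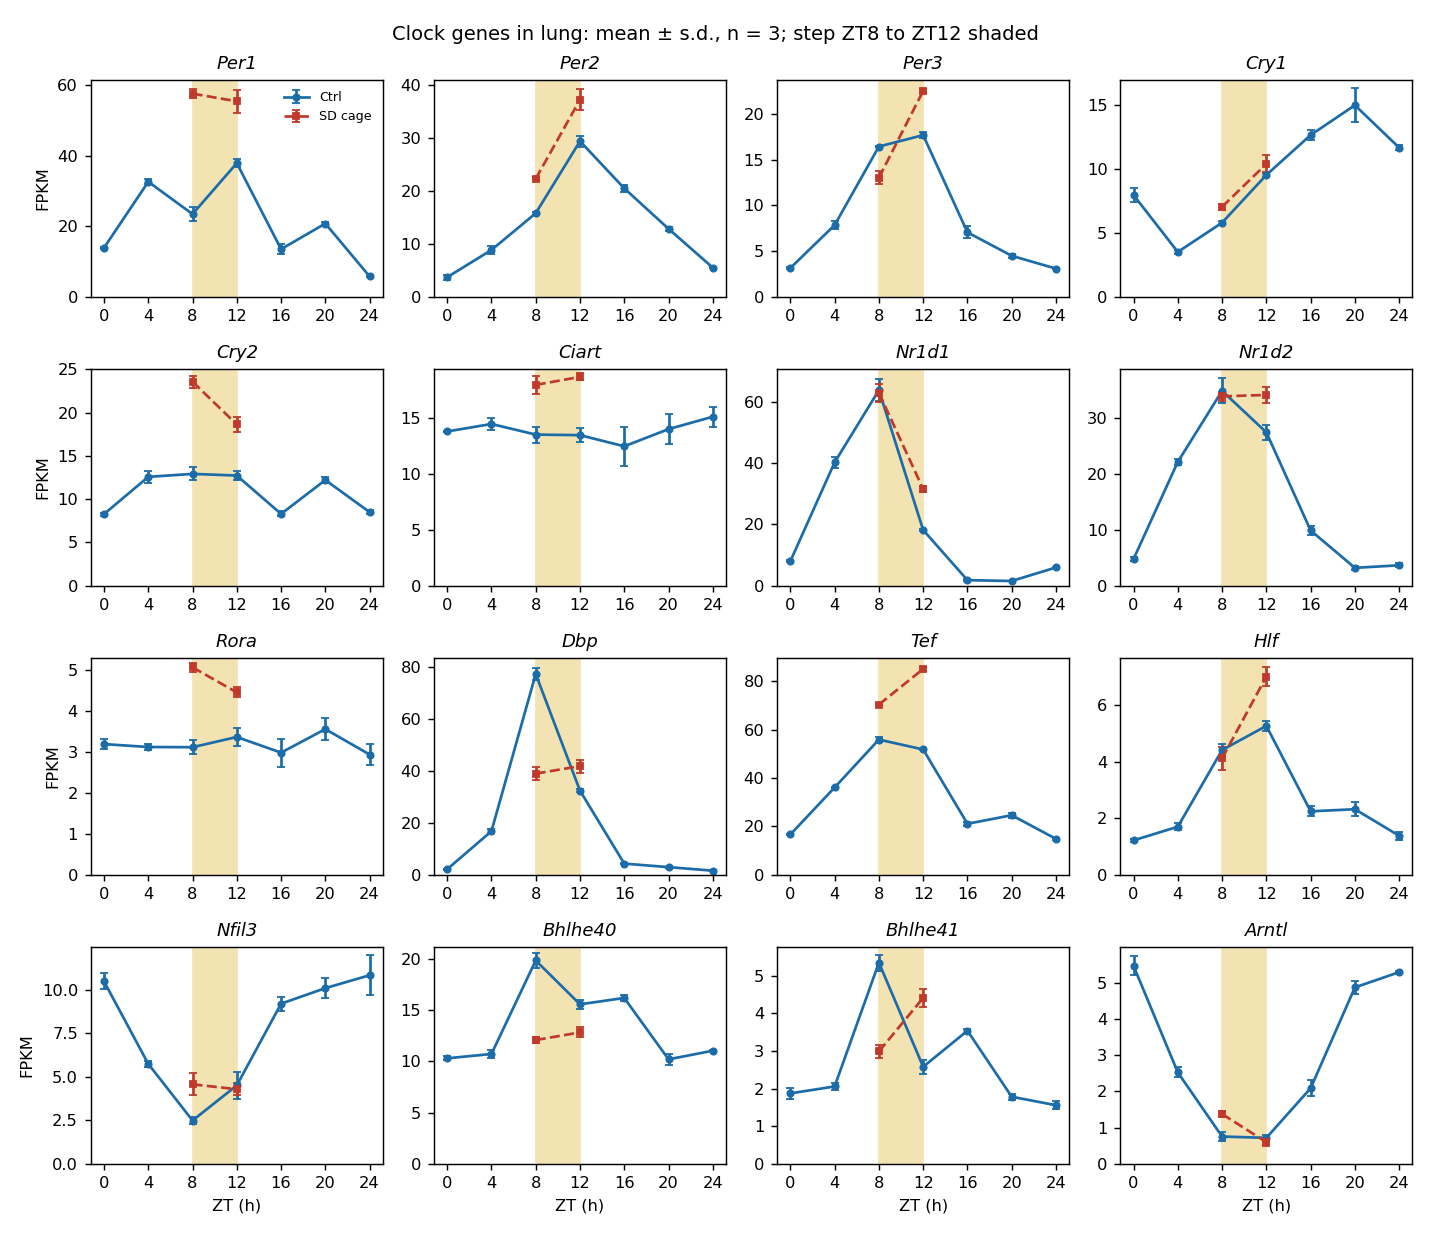
FPKM of 16 clock genes against time (ZT, h): mean ± standard deviation of 3 libraries, home cage (blue, 7 times) and SD cage (red, ZT8 and ZT12 shown), with the 4 h step shaded. Nr1d1 and Dbp drop across the shaded step in home cages, Per2 and Cry1 climb, and Ciart and Arntl stay level.

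Among the rises named by rule, which passes over predicted and antigen receptor genes, the largest was that of Zbtb16. This zinc finger transcription factor is induced by glucocorticoids (chromosome 9, 48654297 to 48836222, minus strand, mm10, ENSMUSG00000066687). It went from 1.3, 1.21 and 1.34 FPKM to 18, 16.8 and 18.3 (log2 3.03 ± 0.093 SE, adjusted p = 2.36e-22). At ZT16 the home cage mean was back at 0.891 FPKM, and ZT12 held the highest of the 7 home cage means. Glucocorticoid-induced genes went the same way as a list: 19 of 21 tested members were called higher and 0 lower, with a median of 0.60 log2 units against 0.0012 for all genes. Fkbp5, the co-chaperone that dampens the glucocorticoid receptor, rose from 2.25, 2.23 and 2.13 to 7.32, 6.77 and 7.42 FPKM (log2 1.35 ± 0.044, adjusted p = 1.1e-21). Tsc22d3, which encodes the anti-inflammatory protein GILZ, rose from 41.3, 44.5 and 40.3 to 102, 106 and 103 FPKM (log2 1.29 ± 0.044, adjusted p = 3.77e-21). No ZT8 library of either gene reached a ZT12 library, which the rule that named them required. Fam107a (log2 1.17), Map3k6 (1.11), Cebpd (1.07), Hif3a (0.74) and Klf9 (0.74) followed. Of the metabolic genes on the list, Angptl4, an inhibitor of lipoprotein lipase, rose by log2 0.60 (adjusted p = 2.09e-08) and Pdk4, which inhibits pyruvate dehydrogenase by phosphorylation, by 0.19 (adjusted p = 0.0308). The 2 members without a call were the metallothioneins Mt1 (log2 -0.13, adjusted p = 0.313) and Mt2 (-0.15, adjusted p = 0.626).

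Cyp26b1, the enzyme that degrades retinoic acid, had the next largest rise by the same rule (chromosome 6, 84571414 to 84593908, minus strand, ENSMUSG00000063415). Its values were 2.46, 2.52 and 2.49 FPKM at ZT8 and 22.9, 22.3 and 21.8 at ZT12 (log2 2.74 ± 0.047 SE, adjusted p = 2.05e-29). Lrat, which esterifies retinol for storage, rose with it, from 3.12, 3.21 and 3.3 to 9.14, 9.63 and 9.57 FPKM (log2 1.31, adjusted p = 6.33e-16). The home cage mean of Cyp26b1 was 5.2 FPKM at ZT16 and 1.58 at ZT20. At ZT0 and ZT24, which are the same hour of the day, it was 4.31 and 22.9 FPKM, so that the 2 groups of 1 clock hour were also far apart. The other rises named by rule were Retnla, a resistin-like protein of alternatively activated macrophages and airway epithelium (201 to 626 FPKM, log2 1.64), Ccl17, a chemokine for T helper cells (log2 1.50), Slpi, a protease inhibitor of airway secretions (1.35), Adamtsl2, a microfibril-associated protein (1.36), Mettl21e, a methyltransferase-like gene (1.39), and Xlr3b (1.52), whose reads can be shared with near-identical Xlr3 copies. Their adjusted p ran from 1.36e-22 to 8.51e-14. Mettl21e overlaps the pseudogene Gm15833 on the opposite strand (0.681 and 2.11 FPKM).

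Chaperone genes rose together. Of 20 heat shock genes 18 were called higher and 0 lower, with a median of 0.41 log2 units. Hspa8, the constitutive HSC70, went from 178, 180.5 and 179 FPKM to 291, 294 and 289 (log2 0.70 ± 0.033 SE, adjusted p = 2.63e-17). Hsph1, its nucleotide exchange factor, went from 7.34, 6.86 and 7.78 to 13.1, 12.7 and 12.9 (log2 0.74, adjusted p = 5.34e-14). The inducible pair Hspa1a (log2 0.88) and Hspa1b (0.90), which can share reads, moved by a like amount. The 2 genes without a call were Hspe1 (log2 -0.045, adjusted p = 0.711) and Bag3 (0.073, adjusted p = 0.326). In the opposite direction went both cold-inducible RNA-binding genes: Cirbp fell from 49.8, 47.3 and 50.3 to 28.7, 25.2 and 27.1 FPKM (log2 -0.84, adjusted p = 6.38e-13) and Rbm3 from 52.6 to 42.4 (log2 -0.30, adjusted p = 9.09e-09). Chaperones of the endoplasmic reticulum rose more modestly, 16 of 21 higher and 1, Trib3, lower (median 0.21), with the BiP gene Hspa5 at 87.3 and 119.5 FPKM (log2 0.45, adjusted p = 1.83e-11).

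Immediate early genes, the first to respond when cells are stimulated, were split: 11 of 24 fell and 7 rose. Egr1, a zinc finger factor, fell from 27.9, 27.9 and 27.1 FPKM to 8.2, 8.42 and 8.45 (log2 -1.61 ± 0.044 SE, adjusted p = 1.69e-23). Fos went from 36.4, 36.7 and 36.3 to 16.9, 16.6 and 19.2 (log2 -1.01, adjusted p = 1.21e-20), Nr4a1 from 40.2 to 20.2 (log2 -0.96) and Junb from 81.3 to 44 (log2 -0.87). For all 4 genes the ZT12 mean was the lowest of the 7 home cage times. The home cage groups at ZT0 and ZT24, the same hour of the day, were also far apart. Egr1 averaged 68.9 and 21.7 FPKM there, Fos 127 and 45.8, Nr4a1 148 and 43.8, and Junb 105 and 64.3. The risers were led by the Kruppel-like factors Klf4 (log2 0.49, adjusted p = 8.79e-10) and Klf2 (0.44, adjusted p = 1.2e-05) and by Jun (0.38, adjusted p = 1.13e-07).

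Genes of the extracellular matrix rose almost without exception: 25 of 26 were called higher and 0 lower, with a median of 0.37. Fn1, fibronectin, stood at 14.4, 14.4 and 15.5 FPKM at ZT8 and 35.3, 34 and 33.1 at ZT12 (log2 1.16 ± 0.058 SE, adjusted p = 1.28e-16). Eln, the elastin of alveolar walls and vessels, stood at 73.8, 67.4 and 73.2 and 153, 146 and 152 (log2 1.06 ± 0.078, adjusted p = 1.21e-12). No libraries of the 2 times overlapped in either gene. The collagen VI genes Col6a2 (log2 0.79) and Col6a1 (0.71) and the collagen IV genes Col4a1 (0.65) and Col4a2 (0.59) came next, and fibrillar Col1a1 (0.37) and Col3a1 (0.43) rose less. Fbln2 was the member without a call (log2 0.0037, adjusted p = 0.975).

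Mfap4, a microfibril protein of elastic fibers, was among the largest gains in absolute terms, from 232, 221 and 231 to 638, 634 and 638 FPKM (log2 1.48 ± 0.095 SE, adjusted p = 5.34e-14), and Mgp, matrix Gla protein, went from 684 to 1085 FPKM (log2 0.66, adjusted p = 1.99e-10). Fibroblast markers did not move as 1 list, with 6 of 13 higher and 3 lower. Mfap4, itself on that list, overlaps Mapk7 on the opposite strand (9.01 and 9.12 FPKM). Tcf21, a factor of lung lipofibroblasts, rose from 21.8 to 40.0 FPKM (log2 0.85, adjusted p = 1.23e-13), while the proteoglycan genes of adventitial fibroblasts fell: Dcn from 28.7 to 16.6 (log2 -0.75, adjusted p = 1.45e-11) and Lum from 8.88 to 5.36 (log2 -0.63, adjusted p = 0.000562).

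All 27 proliferation genes were called higher, with a median of 0.40. Top2a, the topoisomerase of dividing cells, went from 4.09, 3.92 and 4.31 FPKM to 7.28, 7.01 and 7.23 (log2 0.68 ± 0.072 SE, adjusted p = 5.71e-09). Rrm2, the ribonucleotide reductase subunit of S phase, rose by log2 0.65, Cdc20, an activator of the anaphase-promoting complex, by 0.61, Tpx2, a spindle protein, by 0.61 and Mki67 by 0.58. The levels were low at both times, and the 4 genes named by rule (Top2a, Rrm2, Cdc20 and Tpx2) all had their highest home cage mean at ZT16.

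**Figure D3:**
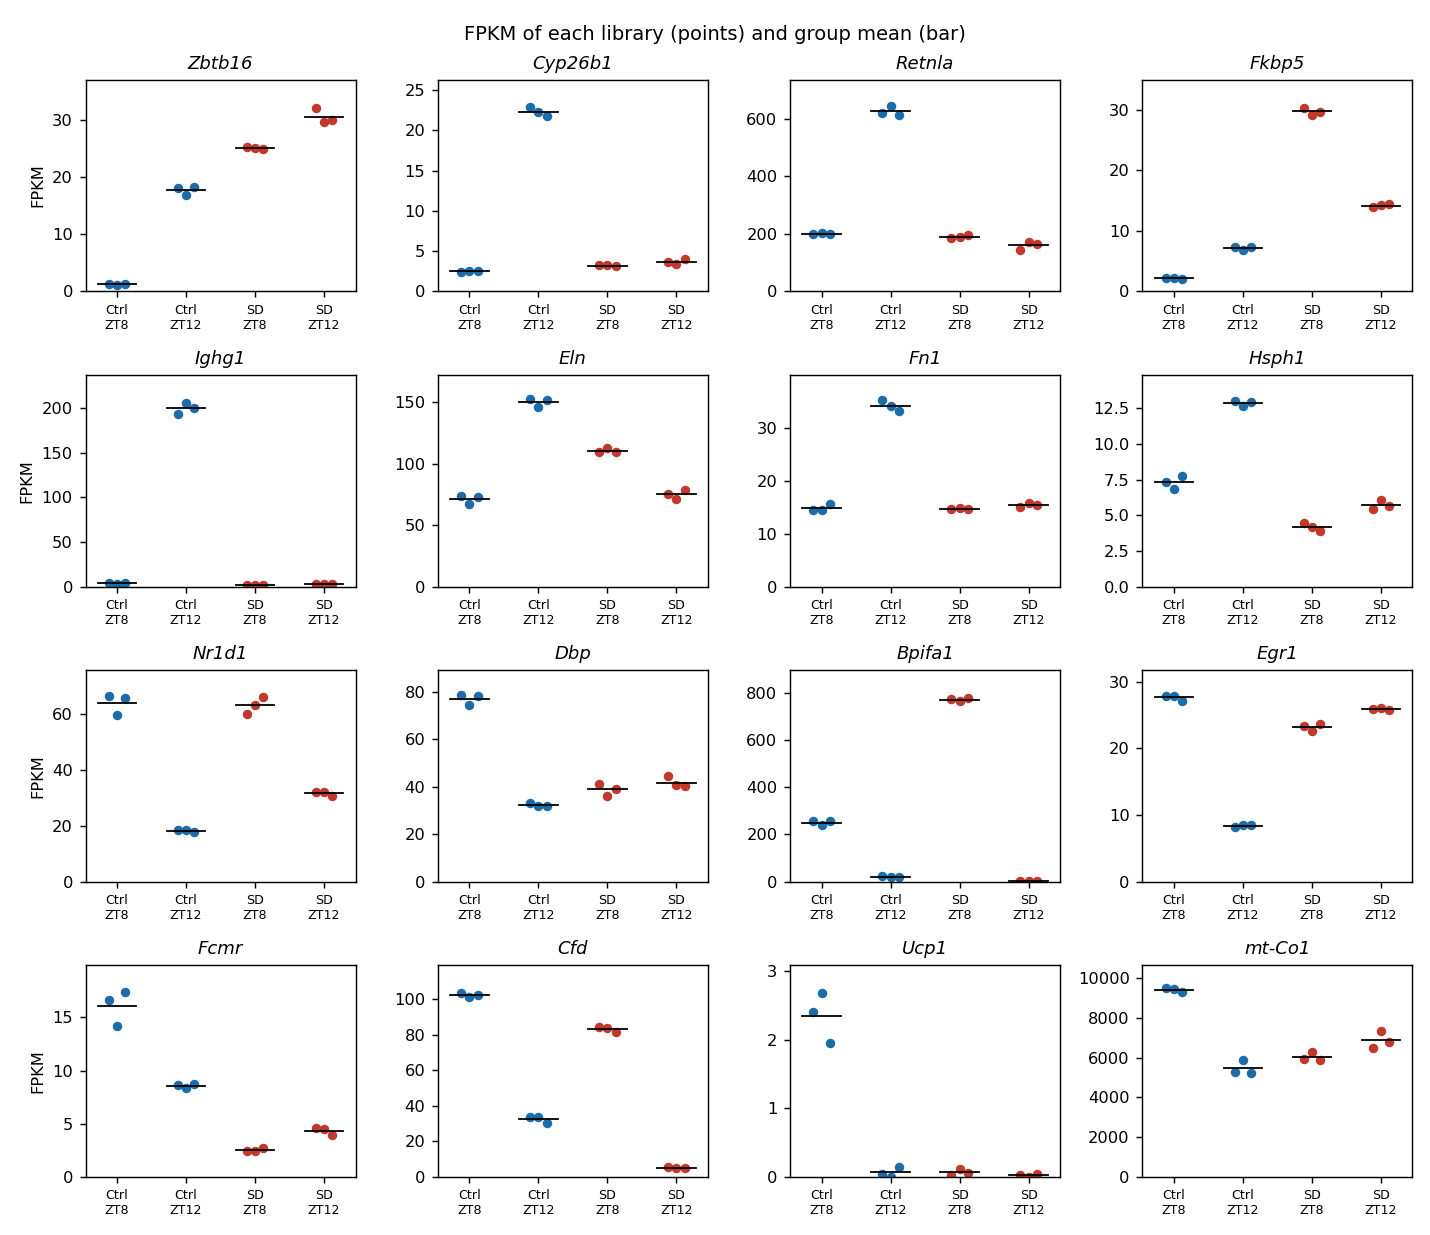
FPKM of each library (points) and group mean (bar) for 16 genes at ZT8 and ZT12 in home cage (Ctrl, blue) and SD cage (red) lungs. The 3 home cage points of ZT12 lie clear of those of ZT8 in each panel. The naming rule required this of the strongest risers and fallers it took. Egr1 and Fcmr fell in home cages and rose in SD cages, and Zbtb16 and Fkbp5 were above every home cage library at both SD cage times.

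Among the falls named by rule, which passes over predicted and immunoglobulin genes, the largest was that of Bpifa1, the antimicrobial SPLUNC1 protein of upper airway lining (chromosome 2, 154142880 to 154149219, plus strand, ENSMUSG00000027483). It stood at 255, 240.0 and 255 FPKM at ZT8 and 21.8, 20.9 and 20.7 at ZT12 (log2 -3.50 ± 0.072 SE, adjusted p = 4.54e-27). Other mucous airway genes did not follow as 1 block, since 8 of 15 were lower and 5 higher. Dmbt1, a scavenger receptor of mucosal secretions, fell from 5.25, 5.29 and 5.48 to 1.49, 1.26 and 1.21 FPKM (log2 -1.45, adjusted p = 1.59e-22), and Scgb3a1 from 4989 to 3580.0 (log2 -0.48, adjusted p = 5.59e-08). Dmbt1 overlaps Fgfr2 on the opposite strand (18.45 and 13.15 FPKM). Clca1, a goblet cell protein that shapes mucus, rose from 63.5, 64.3 and 64.9 to 104, 105 and 104 FPKM (log2 0.69, adjusted p = 1.42e-14), and the mucin Muc5ac also rose (log2 0.53, adjusted p = 2.27e-09).

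Club cells, the secretory and detoxifying cells of small airways, gave the more uniform fall: 9 of 10 markers were lower and 0 higher (median -0.53). Scgb1a1, which had the highest FPKM in these lungs, went from 56750.0, 55715 and 56895 FPKM to 35951, 37015 and 36334 (log2 -0.63 ± 0.12 SE, adjusted p = 0.000129). It took 2.76% to 2.8% of all reads at ZT8 and 1.78% to 1.83% at ZT12, and without a filter on low values it was not called (adjusted p = 0.852). Scgb3a2 went from 1924, 1987 and 1930.5 to 913, 939 and 964 FPKM (log2 -1.05, adjusted p = 1.07e-17). Lypd2 (log2 -1.15) and the cytochromes Cyp2a5 (-1.17) and Cyp2f2 (-0.82), which oxidise inhaled compounds, fell as well. In the wider P450 list 11 of 22 were lower and 2 higher; Cyp2e1 was at 8.7 and 2.93 FPKM (log2 -1.31, adjusted p = 1.69e-13), and Cyp1a1, the target of the aryl hydrocarbon receptor, rose from 25 to 32.3 (log2 0.35, adjusted p = 1.1e-07).

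The sulfotransferases Sult1d1 and Sult1c1 were also among the 12 largest falls by the same rule. Sult1d1 went from 19.8, 20.8 and 19.2 FPKM to 3.63, 3.39 and 3.63 (log2 -2.20 ± 0.088 SE, adjusted p = 3.07e-19) and Sult1c1 from 3.65, 3.79 and 3.4 to 0.418, 0.305 and 0.532 (log2 -1.70, adjusted p = 2.03e-22; log2 -3.11 by limma voom on recovered reads). Sult1c1 passed the filter through ZT8 alone, so that its selection already favoured a fall. At ZT0 and ZT24, the same hour of the day, the home cage means were 4.99 and 9.14 FPKM for Sult1d1 and 0 and 0.865 for Sult1c1. For the keratin Krt15 they were 0.55 and 4.49 FPKM. Basal cell keratins fell with the sulfotransferases over the step, Krt15 from 10.1, 10.9 and 11.3 to 3.15, 2.59 and 3.39 FPKM (log2 -1.54, adjusted p = 6.4e-14) and Krt5 from 4.01, 2.71 and 3.98 to 1.7, 1.16 and 1.43 (log2 -0.91, adjusted p = 1.28e-10). The other 6 listed basal and squamous genes did not pass the filter. Ciliated cell genes were lower in 6 of 14 cases and higher in 0, by little (median -0.14): Tmem212 went from 84.1 to 66.2 FPKM (log2 -0.34, adjusted p = 3.7e-05).

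Alveolar cells showed no common direction. Type 2 cell genes were higher in 3 of 12 cases and lower in 3 (median 0.051), with the surfactant protein Sftpd at 352 and 474 FPKM (log2 0.43, adjusted p = 4.4e-07), the phospholipid enzyme Lpcat1 at log2 -0.39 (adjusted p = 7.02e-13) and Sftpc not called (log2 0.08, adjusted p = 0.466). Of 12 type 1 cell genes 4 were higher and 2 lower, Igfbp2 leading at log2 0.65 (adjusted p = 3.05e-09). The 2 lower genes were near the share over all genes (13.7%). Endothelial genes were higher in 9 of 18 cases and lower in 4, or in 2 with any 1 of the 6 libraries left out. Car4, the carbonic anhydrase of capillary aerocytes, rose from 77.3 to 104 FPKM (log2 0.42, adjusted p = 3.94e-09). Lyve1, the hyaluronan receptor of lymphatic endothelium and some macrophages, rose from 45.7, 47.1 and 46 to 72.5, 72.7 and 73.8 FPKM (log2 0.65, adjusted p = 6.42e-16). Smooth muscle and pericyte genes were evenly split, 5 of 15 each way. Of 9 genes of sodium and fluid transport 3 rose and 1, Scnn1b, fell (log2 -0.17, adjusted p = 0.0162). Scnn1b lost its call without ZT8 replicate 1 or 3 or ZT12 replicate 2 or 3 (adjusted p of 0.0534 to 0.0779). The sodium channel subunit Scnn1a went from 63.6 to 80.4 FPKM (log2 0.34, adjusted p = 0.000104) and its regulator Sgk1 from 25.8 to 37.1 (log2 0.51, adjusted p = 4.38e-12).

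Alveolar macrophage genes rose in 9 of 12 cases with 0 lower (median 0.32). Chil3, the chitinase-like protein Ym1, went from 234, 221 and 239 FPKM to 499, 542 and 508 (log2 1.16 ± 0.047 SE, adjusted p = 3.97e-19), and the scavenger receptor Marco from 10.2, 11 and 11.3 to 18.4, 18.2 and 20.3 (log2 0.75, adjusted p = 6.47e-07). Monocyte genes went down in 8 of 12 cases and up in 2: F13a1, a coagulation factor subunit of classical monocytes, fell from 4.17, 4.29 and 4.23 to 2.38, 2.29 and 2.21 FPKM (log2 -0.67, adjusted p = 1.29e-12). Ms4a4c, another monocyte gene, fell by log2 -0.66 (adjusted p = 2.31e-05). The riser Ace (log2 0.47, adjusted p = 2.22e-10) is also made by lung capillaries.

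B cell genes fell as a list, 12 of 13 lower and 0 higher, with a median of -0.58. Fcmr, a receptor for IgM, stood at 16.7, 14.2 and 17.4 FPKM at ZT8 and 8.67, 8.36 and 8.7 at ZT12 (log2 -0.83 ± 0.09 SE, adjusted p = 9.79e-09). Pax5, the factor that fixes B cell identity, stood at 4.36, 4.74 and 4.24 and 2.08, 2.47 and 2.3 (log2 -0.73, adjusted p = 3.81e-10). The IgD heavy chain Ighd of naive B cells fell likewise, from 48.1, 50.7 and 49.1 to 23.6, 25.2 and 23.7 FPKM (adjusted p = 2.04e-08). No ZT12 library of these genes reached a ZT8 library, and Spib was the listed gene without a call (log2 -0.17, adjusted p = 0.116). Genes of NK cells (7 of 12 lower) and T cells (6 of 16 lower) went the same way with 0 higher. Klra8, an NK cell receptor, went from 3.26, 3.09 and 3.7 to 1.04, 1.93 and 1.38 FPKM (log2 -0.84, adjusted p = 4.51e-06), and Cd8a, a co-receptor of cytotoxic T cells, from 4.21 to 3.12 (log2 -0.34, adjusted p = 0.000248).

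Antibody genes did not follow the B cell genes. Of 12 immunoglobulin constant genes 8 were higher and 2 lower. The IgG1 heavy chain Ighg1 went from 4.11, 3.04 and 3.79 FPKM to 193, 205 and 199.7 (log2 5.44 ± 0.088 SE, adjusted p = 1.44e-29) and Ighg2c from 45.4, 44.1 and 45.3 to 153, 162 and 153 (log2 1.77, adjusted p = 1.14e-14). Neither had a steady course over the home cage groups. Ighg1 averaged 0.706 FPKM at ZT4, 89.7 at ZT16 and 0.318 at ZT20, and 1.54 and 2.45 at ZT0 and ZT24. Ighg2c averaged 0.875 FPKM at ZT0 and 19.5 at ZT24, the same hour of the day. Genes of the plasma cells that make antibody mostly passed no test, 1 of 10 higher and 1 lower. Jchain averaged 223 and 244 FPKM (adjusted p = 0.316) and Mzb1 62.3 and 69.1 (adjusted p = 0.208). Related immunoglobulin genes can share reads, so the split between isotypes is uncertain. Glycam1, a ligand made by the high endothelial venules of lymphoid tissue, fell from 4.8, 4.8 and 4.79 to 0.848, 1.16 and 0.921 FPKM (log2 -1.56, adjusted p = 2.62e-21). It had no steady course: its home cage mean was 0 at ZT0, ZT4 and ZT20, 6.81 at ZT16 and 0.704 at ZT24. In the SD cage groups it was 0, or 0.00572 at ZT4. Its values stand beside the B cell fall, and the part of lymphoid tissue in the samples was not tested.

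Interferon-induced genes were higher in 10 of 27 cases and lower in 1 (median 0.090), led by the chemokines Cxcl9 (2.18, 1.98 and 2.08 to 5.08, 4.44 and 4.15 FPKM, log2 0.85, adjusted p = 1.83e-09) and Cxcl10 (log2 0.70, adjusted p = 1.1e-05). Over 26 chemokine genes 9 rose and 5 fell; Ccl6 of myeloid cells rose from 88.8, 89.7 and 88.8 to 168, 174 and 171 FPKM (log2 0.93, adjusted p = 8.61e-11). Within MHC class II the genes split: H2-Ob, which restrains peptide loading in B cells, fell from 25.2 to 16 FPKM (log2 -0.62, adjusted p = 2.33e-07) as did 3 others of 10, while the invariant chain Cd74 rose from 836 to 1053 (log2 0.33, adjusted p = 1.04e-06). The median of the 10 was 0.031, of opposite sign to most of the calls. Of 11 MHC class I genes 3 were higher and 0 lower.

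Transcripts of circulating blood cells rose in part. Erythroid genes were higher in 9 of 10 cases (median 0.75): Hbb-bs, adult beta globin, went from 2349, 2375 and 2321 FPKM to 4151, 4107 and 4305 (log2 0.83 ± 0.069 SE, adjusted p = 1.96e-11), and Alas2, the first enzyme of erythroid heme synthesis, from 28.4, 27.8 and 29.5 to 55, 54.4 and 53.3 (log2 0.90, adjusted p = 7.15e-17). Alpha globin Hba-a1 rose from 1990.5 to 3617 FPKM (log2 0.86, adjusted p = 1.38e-12). Globin genes share reads with near-identical copies. Neutrophil genes were higher in 8 of 14 cases and lower in 1, Csf3r (log2 -0.50, adjusted p = 4.78e-11). The granule genes Ngp (12.3, 10.5 and 11.7 to 29.5, 29.1 and 28.9 FPKM, log2 1.27, adjusted p = 7.62e-12) and Camp (log2 1.05, adjusted p = 9e-06), made in maturing neutrophils, rose with S100a9 (log2 0.77, adjusted p = 4.32e-08). Platelet genes were lower in 3 of 6 cases, Pf4 going from 28 to 21.5 FPKM (log2 -0.37, adjusted p = 8.17e-05). How much blood each sample held was not tested.

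All 13 protein-coding genes of the mitochondrial genome fell, with a median of -0.93. mt-Co1, a subunit of cytochrome oxidase, went from 9490.2, 9455 and 9310.3 FPKM to 5283, 5886 and 5253 (log2 -0.78 ± 0.11 SE, adjusted p = 9.87e-07), and mt-Nd1 of complex I from 4160.3, 4523 and 4197 to 2310.4, 2584 and 2396 (log2 -0.82, adjusted p = 1.31e-06). The whole mitochondrial genome took 3.85% to 4.01% of reads at ZT8 and 2.18% to 2.44% at ZT12, with no overlap. mt-Atp6 varied more between libraries (189, 369 and 211 and 45.7, 100.2 and 71.9 FPKM, log2 -1.81, adjusted p = 0.000368). mt-Atp8, at 17.1, 5.12 and 14 and 2.84, 3.65 and 3.89 FPKM, was called at log2 -1.42 (adjusted p = 0.0388). The call was lost without ZT8 replicate 1 or 3 or any 1 ZT12 replicate, at log2 -1.11 to -1.49 and adjusted p of 0.0638 to 0.173. mt-Nd4l lost it without ZT8 replicate 1 or 3 or ZT12 replicate 1 (adjusted p of 0.0603 to 0.082), and mt-Co3 without ZT8 replicate 3 (0.0631) or ZT12 replicate 1 (0.0538). Nuclear genes of the respiratory chain fell by less, 28 of 78 lower and 2 higher (median -0.14), and only 18 were lower without ZT8 replicate 3 and 17 without ZT12 replicate 1. The largest falls among them were of the muscle isoforms Cox8b (log2 -1.45, adjusted p = 2.66e-06) and Cox7a1 (-1.26, adjusted p = 8.41e-06).

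Of 76 cytosolic ribosomal protein genes 47 fell and 0 rose (median -0.23), for example Rpl12 from 139 to 106 FPKM (log2 -0.39, adjusted p = 8.92e-06). Of 26 fatty acid oxidation genes 15 fell and 2 rose (median -0.17), with the thiolase Acaa2 at 80.0, 78.6 and 82.4 and 63.4, 59.4 and 61.2 FPKM (log2 -0.38, adjusted p = 1.92e-08) and Cpt1a, the carnitine acyltransferase of the mitochondrial outer membrane, at 25 and 21 (log2 -0.24, adjusted p = 4.94e-06). Fatty acid synthesis leaned the other way, 8 of 14 higher and 4 lower (2 without ZT8 replicate 1): the desaturase Scd1 rose from 171, 173 and 172 to 238, 247 and 236 FPKM (log2 0.48, adjusted p = 3.42e-16). PPAR alpha targets were split, 5 of 13 higher (2 without ZT8 replicate 2) and 4 lower (2 without ZT12 replicate 2) with a median of -0.10. Of 23 cholesterol synthesis genes 3 were called each way, near the shares over all genes (15.8% higher, 13.7% lower), with a median of 0.0073. Among them the phosphomevalonate kinase Pmvk was at 15 and 26 FPKM (log2 0.75, adjusted p = 6.43e-12). Of 19 NRF2 targets 7 fell and 3 rose, the rises near the share over all genes (15.8%), with the quinone reductase Nqo1 at log2 -0.74 (adjusted p = 6.33e-06).

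Markers of tissues that border the lung were lower at ZT12. Of 12 adipocyte genes listed 9 passed the filter and were called lower (median -0.91), 1 of them, Ucp1, having passed through ZT8 alone. Cfd, the adipsin of fat cells, went from 103, 101 and 102 FPKM to 33.8, 33.8 and 30.0 (log2 -1.63 ± 0.072 SE, adjusted p = 4.88e-18), and Adipoq from 6.51, 7.83 and 6.34 to 2.17, 2.01 and 2.72 (log2 -1.26, adjusted p = 1.62e-09). Ucp1, which defines brown fat, was at 2.41, 2.68 and 1.95 FPKM at ZT8 and at 0.0442, 0 and 0.147 at ZT12, where 1 library was listed at 0 (log2 -1.65, adjusted p = 1.33e-18). This change depends on the scale, at log2 -3.99 with a pseudocount of 0.1 and -5.71 by limma voom. Cardiac muscle genes, which in mice are also expressed in the walls of pulmonary veins, were lower in 9 of 12 cases and higher in 0 (median -0.52): Sln, sarcolipin, fell from 38.6, 34.5 and 40.6 to 11.7, 12 and 11.1 FPKM (log2 -1.62, adjusted p = 5.93e-12) and Myl7, the atrial light chain, from 132, 132 and 131 to 84.1, 77.2 and 80.6 (log2 -0.70, adjusted p = 2.95e-07). Nppa, the atrial natriuretic peptide gene, went from 7.12, 7.32 and 6.82 to 2.47, 3.21 and 2.35 (log2 -1.14, adjusted p = 1.24e-08). Mesothelial genes fell in 4 of 6 cases, Upk3b going from 6.08 to 3.95 FPKM (log2 -0.52, adjusted p = 1.33e-08). Car3, carbonic anhydrase of muscle and fat, fell too (log2 -1.58, adjusted p = 9.22e-16). In Cfd, Car3 and Sln the home cage groups at ZT0 and ZT24, the same hour of the day, were also far apart. Cfd averaged 16.8 and 72.9 FPKM there, Car3 3.03 and 15.6, and Sln 5.86 and 16.6, while Ucp1 was near 0 at both (0.0641 and 0.0294). Skeletal muscle genes were lower in 2 of 5 cases, no cartilage gene passed the filter, and the 1 thymocyte gene that did was not called. Cox8b, Cox7a1, Dcn and Lum fell alongside these markers, and the part of tissue carried along in dissection was not tested.

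**Figure D4:**
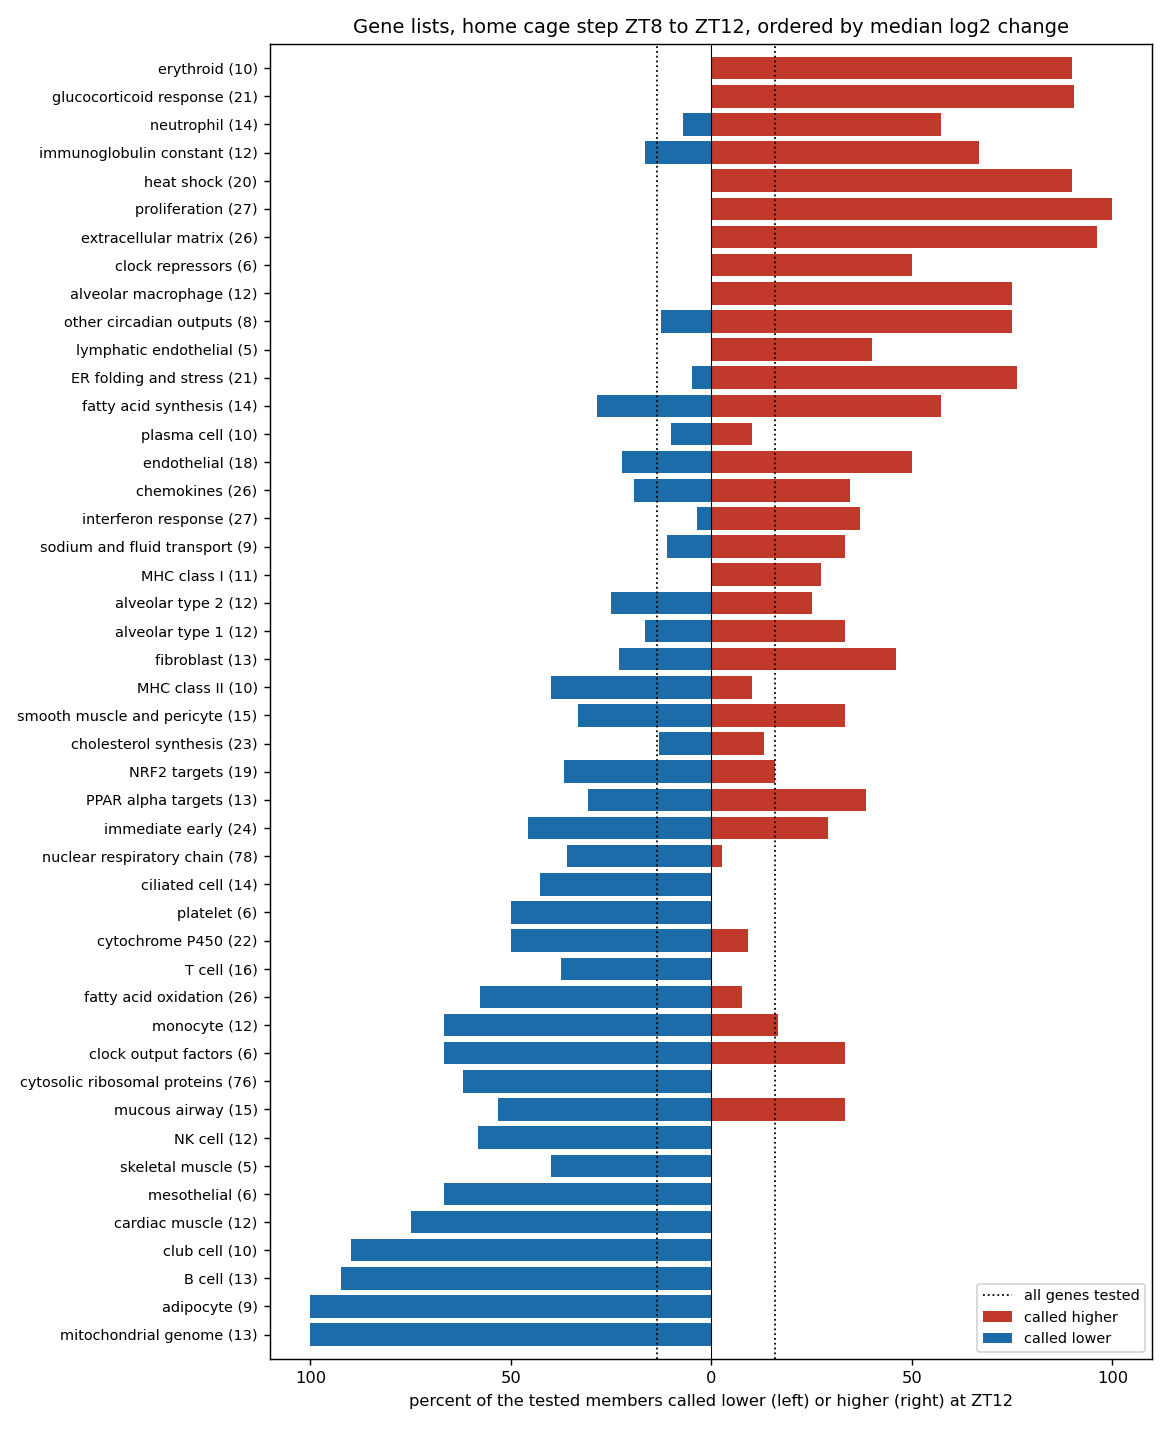
Share of the tested members (number in brackets) of each list with at least 5 tested genes that was called higher (red, right) or lower (blue, left) at ZT12, lists ordered by their median log2 change; dotted lines give the share over all genes, 15.8% and 13.7%. Proliferation, extracellular matrix, glucocorticoid and heat shock genes fill the right side, and mitochondrial genome, adipocyte, B cell and club cell genes the left.

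The same 4 h in the SD cages gave a separate set of 6 libraries. There 3334 genes were called higher (19.5%) and 3354 lower (19.6%), 338 of them rising at least 1.5-fold (1.97%) and 401 falling as much (2.34%). Scaled by total reads in place of the authors' scaling, the SD cage calls split 64% higher against 49.9% as deposited. Of the 2713 genes that rose in home cages 870 also rose there, 515 fell and 1328 were not called; of the 2343 that fell 884 also fell, 446 rose and 1013 were not called. The test of the difference, home cage step minus SD cage step, called 2700 genes higher (15.8%) and 2358 lower (13.8%), with 557 (3.25%) and 598 (3.49%) at least 1.5-fold. Under scaling by total reads 41.7% of these calls were on the higher side against 53.4% as deposited. The 2 steps share no library.

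Most glucocorticoid-induced genes moved in opposite directions in the 2 housings. In the SD cages 2 of the 21 rose and 18 fell (median -0.75), and in 20 of 21 the steps differed, all toward the home cage. Fkbp5 stood at 30.4, 29.1 and 29.7 FPKM at ZT8 and 13.9, 14.2 and 14.4 at ZT12 in the SD cages (log2 -1.02 ± 0.044 SE), so that both SD cage times lay above both home cage times. The difference of the steps was 2.37 ± 0.062 (adjusted p = 3.12e-24). Zbtb16 was already at 25.3, 25.1 and 24.9 FPKM at ZT8 there and at 32.1, 29.6 and 29.9 at ZT12, above the home cage peak (difference of the steps 2.76 ± 0.13, adjusted p = 2.93e-17). Cyp26b1 rose far less in the SD cages, by log2 0.15, from 3.27, 3.25 and 3.1 to 3.63, 3.38 and 4 FPKM (difference 2.59, adjusted p = 1.21e-24).

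Within the clock, Per2 and Cry1 rose in both housings and the test of the difference did not call their steps (differences 0.14 ± 0.082 and 0.13 ± 0.078, adjusted p = 0.205 and 0.229). A p that misses the threshold does not show that the steps were equal. Per1 was not called in the SD cages (58.8, 56.2 and 57.7 and 58.3, 51.8 and 56 FPKM, difference 0.73, adjusted p = 1.06e-09), where both times exceeded the home cage values. Dbp was not called at 41.3, 36.1 and 39.1 and 44.6, 40.5 and 40.1 FPKM (difference -1.33 ± 0.098, adjusted p = 1.33e-12). Bhlhe41 rose there from 3.18, 2.83 and 2.96 to 4.23, 4.33 and 4.69 (difference -1.27 ± 0.088, adjusted p = 4e-13), and Per3 from 13.6, 12.3 and 13.2 to 22.7, 22.3 and 22.6 (difference -0.65, adjusted p = 3.44e-09). Nr1d1 fell there too but less than in home cages (log2 -0.97 against -1.76, adjusted p of the difference = 8.55e-10). The activators fell in the SD cages, Arntl from 1.37 to 0.597 FPKM (difference 0.54, adjusted p = 3.61e-06; 1.15 by limma voom).

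B cell genes went opposite ways in the housings. They rose in the SD cages in 12 of 13 cases with 0 lower (median 0.53), and the steps differed toward the SD cages in 12 of 13. Fcmr went from 2.46, 2.4 and 2.67 to 4.57, 4.48 and 3.93 FPKM there, below every home cage library at either time (difference -1.43 ± 0.13, adjusted p = 1.34e-10). NK cell genes rose in 12 of 12 cases (12 differences) and monocyte genes in 11 of 12 (10 differences lower, 2 higher). Of 27 interferon-induced genes 24 were called higher in the SD cages (median 0.50). In home cages 10 were called higher and 1 lower (median 0.090), and 21 differences were lower and 2 higher. Matrix genes, of which 25 of 26 rose in home cages, were divided in the SD cages, 8 higher and 11 lower, a median of -0.041 as deposited and of 0.015 under scaling by total reads; 20 of the 26 differed toward the home cage and 3 toward the SD cages. Eln fell from 109, 113 and 109 to 75.3, 71 and 78.9 FPKM there (difference 1.62 ± 0.11, adjusted p = 2.37e-13), and Lox, the enzyme that cross-links elastin and collagen, changed by log2 -1.87 where it had changed by 0.45 in home cages (adjusted p of the difference = 3.3e-22).

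Mucous airway genes differed widely between the housings. In the SD cages 14 of 15 fell and 0 rose, with a median of -1.81, and all 15 steps differed by the test, 14 toward the home cage and 1 toward the SD cages. Bpifa1 dropped from 772, 764 and 776 FPKM to 1.2, 1.44 and 1.68 (difference 4.81 ± 0.1, adjusted p = 1.89e-26). Reg3g, a lectin that kills bacteria, dropped from 65.7, 63.3 and 63.6 to 0.668, 1 and 0.69 FPKM, against 1078, 1075 and 1082 and 758, 799.8 and 772 in home cages (difference 4.72). Bpifb1 (difference 4.70), Scgb3a1 (4.04) and the glycoprotein Gp2 (3.09, or 9.13 by limma voom) complete the 5 largest differences on this side by the naming rule. In these 5 genes the home cage groups at ZT0 and ZT24, the same hour of the day, were also far apart. Bpifa1 averaged 18.1 and 137 FPKM there, Reg3g 3.26 and 325, Bpifb1 9.92 and 76.5, Scgb3a1 318 and 2023, and Gp2 0.293 and 30.9. On the negative side stood the mitochondrial genes, of which 13 fell in home cages and in the SD cages 0 fell and 2 rose, with 11 of 13 differences lower. Adipocyte genes fell in 8 of 9 cases in the SD cages too (median -1.31), but Ucp1, at 0.0619 and 0.0222 FPKM, was near 0 at both times there.

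**Figure D5:**
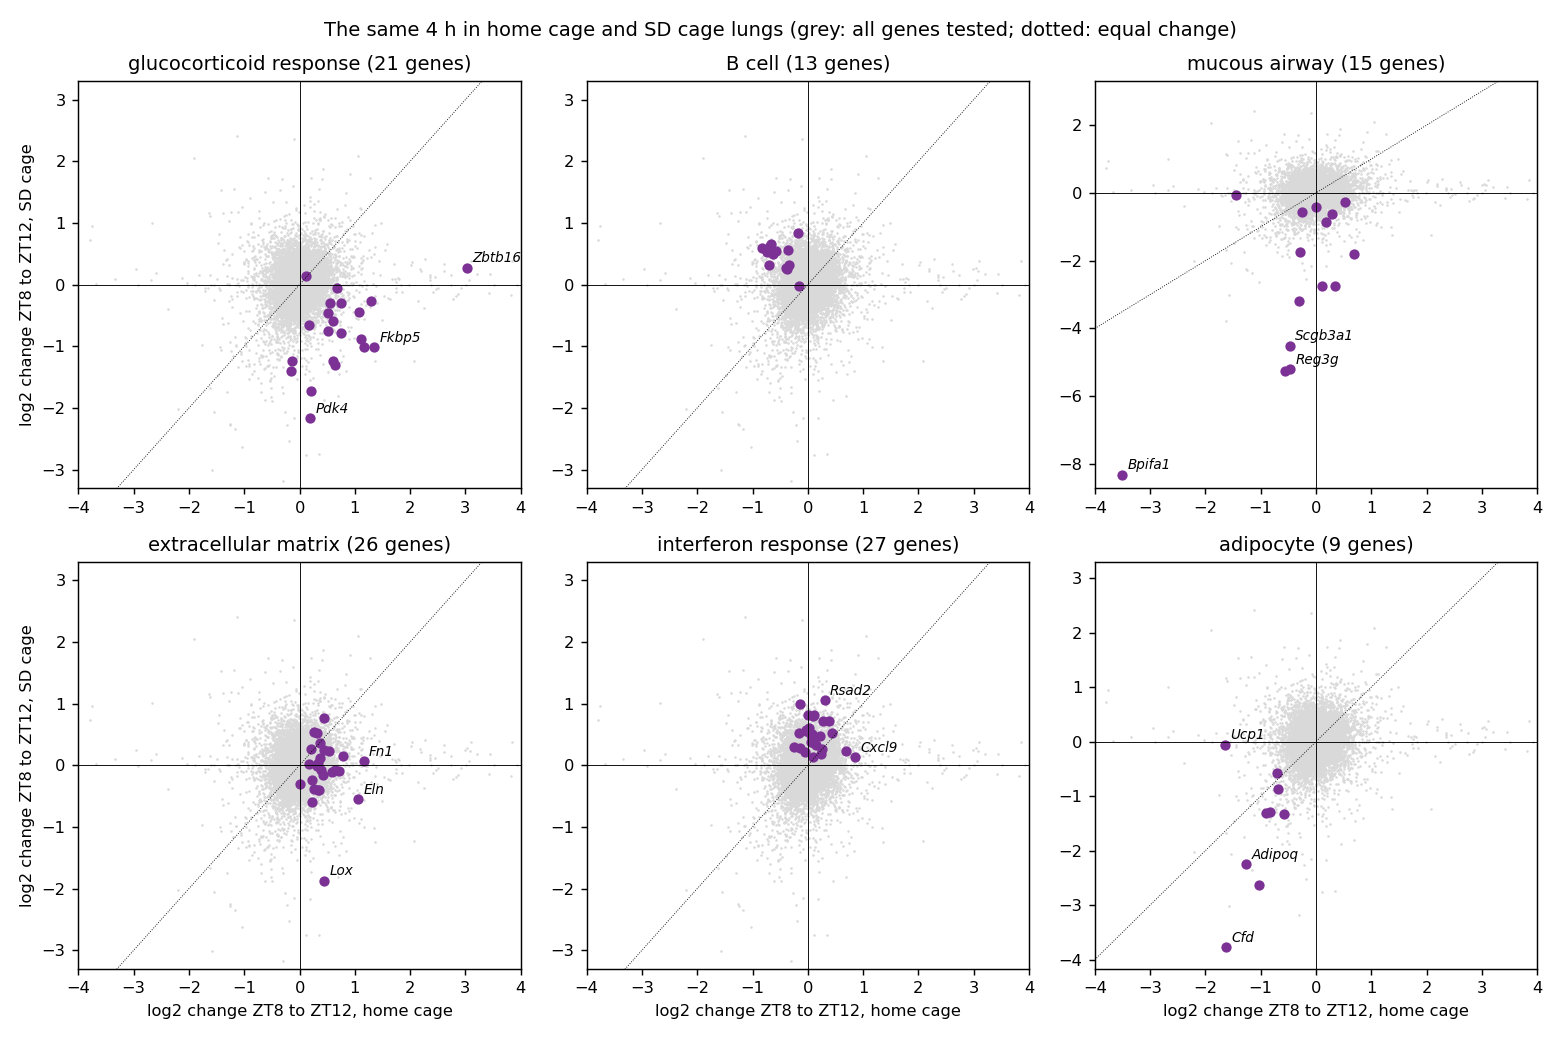
Change from ZT8 to ZT12 (log2 of FPKM + 1) in SD cage lungs against that in home cage lungs, each point a gene; grey points are all 17131 genes tested, purple points the members of 6 lists, and the dotted line marks equal change; points beyond the axes, mostly immunoglobulin segments, are not drawn. Glucocorticoid genes lie right and mostly below 0, B cell genes left and mostly above 0, and the mucous genes reach log2 -8.31 (Bpifa1) on the vertical axis, whose range differs in that panel and in the adipocyte panel.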

How the data were processed

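The authors deposited 1 table of FPKM values per gene for 42 libraries in 14 groups of 3. Reads were aligned with HISAT2 2.0.5 and counted with featureCounts 1.5.0-p3 against mm10, per the submitters' processing notes. The sources used here do not give the handling of strand and of multi-mapping reads, or the tool that made the FPKM. Values stepped in whole reads: with the gene lengths, 99.94% to 100.0% of values per library came out whole within 0.1, so that 25285525 to 29790252 reads were recovered per library. The deposited FPKM already carried a scaling by library other than total reads. 27 gene symbols that had been turned into dates were restored from gene IDs.

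Tests used limma 3.58.1 in R 4.3.3 on log2(FPKM + 1), with a mean-dependent variance trend and 14 group means over all 42 libraries, for genes with a mean of at least 0.5 FPKM over the 6 home cage libraries. Fold changes are on that scale and understate changes of low genes. The contrasts were home cage ZT12 minus ZT8, SD cage ZT12 minus ZT8, and their difference. Calls are Benjamini-Hochberg adjusted p under 0.05 over all 17131 genes. Replicate pairs of the home cage groups differed by more than counting noise and were kept as separate samples. Gene lists are described by counts and medians, with no set test; 2 listed genes are not reported here and are left out of the lists. The naming rule took the 12 strongest called risers and as many fallers with at least 1 FPKM and no overlap between times, the 5 largest each way in FPKM, all clock genes, up to 4 called members of every list, and the 5 largest differences each way, leaving aside antigen receptor segments, pseudogenes and predicted genes. Further list members named beside them were chosen after their values were seen. How many of all genes had no overlap between the times was not counted, so remarks of no overlap have no such share beside them. The genes, lists and comparisons were chosen with earlier results of these data known. Promoters came from RefSeq (GRCm38.p6, the mm10 assembly). Alternatives were other pseudocounts, filters and scalings, a fit on the compared groups alone, the replicate number as a block, limma voom on recovered reads, and each library left out.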

Additional observations from a re-analysis of the deposited data

Results flagged for a closer look

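The 45 values here are differences of steps, home cage minus SD cage, in log2 units of FPKM + 1. Each gene was named by rule or is a member of a gene list. Only genes whose limma test of the difference itself passed an adjusted p of 0.05 over all 17131 genes were taken. Passing was thus a condition of entry and is not a result for these genes. Over all 17131 genes, 15.8% were called on the higher side and 13.8% on the lower. These shares are no comparison for a set selected on the same test. A positive value means that the home cage step was the higher one.

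Glucocorticoid and airway genes made up most of the large positive differences: Zbtb16 at 2.76, Fkbp5 at 2.37, Bpifa1 at 4.81, Reg3g at 4.72, Bpifb1 at 4.70, Scgb3a1 at 4.04 and Gp2 at 3.09. In the airway genes among them the home cage groups at ZT0 and ZT24 were also far apart. Among antibody and matrix genes the values were 5.18 for Ighg1, 1.68 for Ighg2c, 1.62 for Eln and 2.32 for Lox. The home cage mean of Ighg1 was 199.5 FPKM at ZT12, 89.7 at ZT16 and 0.318 at ZT20. For Ighg2c it was 0.875 FPKM at ZT0 and 19.5 at ZT24, the same hour of the day. Of the adipocyte genes, Cfd stood at 2.14 and Ucp1 at -1.60 (-4.50 by limma voom, and near 0 in the other 3 groups compared). In Cfd too the home cage groups at ZT0 and ZT24 were far apart (16.8 and 72.9 FPKM).

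Clock genes differed in both directions. Positive values were 0.54 for Arntl, 0.42 for Clock, 0.37 for Npas2, 0.73 for Per1, 0.31 for Cry2, 0.24 for Rora and 0.72 for Nfil3. Npas2 stood at 0.79 with a pseudocount of 0.1 and at 0.91 by limma voom. Rora lost its call under scaling by total reads (adjusted p = 0.0633) and without home cage ZT8 replicate 3, home cage ZT12 replicate 2 or SD cage ZT12 replicate 1 (adjusted p of 0.0504 to 0.0716). Negative values were -0.78 for Nr1d1, -0.34 for Nr1d2, -0.65 for Per3, -1.33 for Dbp, -0.38 for Tef, -0.44 for Hlf, -0.41 for Bhlhe40 and -1.27 for Bhlhe41.

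The named B cell, NK cell, monocyte and platelet genes, picked as the largest called differences of their lists, were negative. Of all 12 monocyte genes 10 differences were lower and 2 higher. B cell and antigen presentation genes gave -1.43 for Fcmr, -1.33 for Cd79a, -1.20 for H2-Ob and -0.81 for H2-DMb2. NK cell genes gave -1.70 for Klra8 (-2.88 by limma voom) and -1.47 for Gzma, and monocyte genes -1.40 for F13a1 and -1.35 for Ms4a4c. Interferon-induced Isg15 gave -0.81 and Gbp4 -1.13, and platelet genes -1.41 for Ppbp and -0.79 for Treml1.

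The 5 most negative differences named by rule were in short mitochondrial or microRNA genes: mt-Atp8 at -2.95, mt-Th at -2.72, mt-Nd4l at -2.41, Mir6905 at -2.30 and mt-Ta at -2.27. Mir6905 lost its call without home cage ZT8 replicate 2 (-1.78, adjusted p = 0.0592) and stood at -4.66 with a pseudocount of 0.1, and mt-Th lost its call without SD cage ZT8 replicate 1 (-2.43, adjusted p = 0.0543). mt-Atp8 and mt-Nd4l overlap longer mitochondrial genes and Mir6905 lies inside Med23, so that the assignment of their reads is uncertain.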

How the results depend on the processing

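The counts of called genes kept within 1.5 times of their value under every alternative run. For the home cage step they were 2295 to 2402 higher and 1855 to 2096 lower with 1 library left out, for the SD cage step 2894 to 3026 and 2887 to 3046, and for the difference 2431 to 2576 and 2089 to 2275. Counts past 1.5-fold moved more: with a pseudocount of 0.1 the home cage step had 468 higher and 459 lower (292 and 265 as reported), the SD cage step 854 and 698 (338 and 401), and the difference 972 lower (598), and with limma voom these were 537 and 526, 895 and 735, and 1041. Of 210 named home cage results 187 kept their side of the threshold in every setting run, as did 45 of 48 named differences, and no called value changed sign; Arntl, Cry2 and Ciart, not called, had values near 0 that took either sign in the home cage step. The Mir6905 difference had an adjusted p of 0.0635 under the replicate block. Home cage list counts of 2 or fewer moved by at most 1 with 1 library left out. Replicate numbers did not pair the libraries: same-numbered home cage libraries had correlations of deviations of 0.0333, 0.0208 and -0.0221, and SD cage libraries of 0.0324, 0.0846 and -0.0162. Under the replicate block the home cage counts were 2039 and 1880, the SD cage counts 2453 and 2677, and the difference 2508 and 2176, and 3 of 16 T cell genes were lower in home cages where 6 were reported and 4 immediate early genes were higher where 7 were. Depth limits the shortest and rarest transcripts, for which single libraries decide a call.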
